A study of Homo sapiens with 18 samples.

Results

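The comparison described here is that of LN229 cells given a guide against DDA1 (sgDDA1, 3 libraries) with LN229 cells given a control guide (sgCon, 3 libraries), which are 6 of the 18 RNA sequencing libraries in the series. LN229 is an established human glioblastoma line, and the labels give glioma as the cell type for all 6 libraries. Both groups were kept in DMEM with 10% fetal bovine serum, and no drug, time or dose is given for either. The other 12 libraries are T98G and U118-MG cells with the same guides. Neither the cell population (a pool or a clone) nor the origin of the 3 libraries of a group (separate dishes or one) is labelled, so replicate spread, and each p-value, may be technical only.

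The DDA1 protein is small and attaches to DDB1 in cullin-RING ubiquitin ligases built on CUL4A or CUL4B. These ligases join a scaffold, the adaptor DDB1 and exchangeable receptors called DCAFs, and mark substrates for the proteasome; the COP9 signalosome switches them off by removing NEDD8 from the cullin. A guide directs an enzyme to a site in DNA, and the sample titles do not name that enzyme. If the enzyme cuts, the transcript need not fall, and the DDA1 mRNA is then a limited check of the guide. In glioblastoma this ligase family is studied for its part in DNA repair and the cell cycle, which is why those gene groups were examined.

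Library totals were 48.4, 55.1 and 48.4 M counts in the sgDDA1 libraries, and 94.1, 48.2 and 48.2 M in the sgCon libraries. Mitochondrially encoded genes took 6.2% to 6.43% of counts in sgDDA1 libraries and 5.16% to 5.75% in sgCon libraries, and lincRNAs took 1.38% to 1.51% in sgDDA1 against 0.899% to 1.0% in sgCon. The part of these shares in the results below was not tested. The line label met a contrary value. CDKN2A, a cell cycle inhibitor gene commonly reported as deleted in LN229, was at 62.8 to 68.0 CPM (counts scaled to a common library total) in sgDDA1 and 56.5 to 63.5 CPM in sgCon. CD44, a surface glycoprotein abundant in many glioblastoma lines, was at 3.29 to 5.13 CPM in sgDDA1 and 2.66 to 4.75 CPM in sgCon, against 1710 to 2280 CPM over the T98G libraries. Of the astrocyte markers, GFAP and S100B stayed under 1 CPM, AQP4 was at 3.31 to 3.83 CPM in sgDDA1 and 0.85 to 0.893 CPM in sgCon, and SLC1A3 was at 71.1 to 75.5 CPM in sgDDA1 and 107 to 115 CPM in sgCon. In a longer list of astrocyte and glioma markers, 7 of 11 tested were called higher and 2 lower. The 6 immune markers and the endothelial markers PECAM1, CDH5, VWF and CLDN5 were under 1 CPM in all 6 libraries, but the receptors FLT1 and KDR, of a longer endothelial list, were higher (1.17 and 1.19 on the log2 scale), FLT1 at 21.9, 24.4 and 23.6 TMM-scaled CPM in sgDDA1 and 10.1, 10.5 and 10.4 CPM in sgCon. The identity of the line was not tested further, and LN229 below means the libraries that carry that label. The CDKN2A and CD44 ranges overlapped between the 2 groups, whereas AQP4, SLC1A3 and FLT1 differed.

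The transcriptome changed broadly and mostly by little. Of 20891 genes that passed the count filter, 6235 (29.8%) were higher and 5688 (27.2%) were lower in sgDDA1 cells, in all 57.1% of genes at an adjusted p under 0.05 by edgeR's quasi-likelihood test. Over the called genes the median absolute log2 fold change was 0.452, and 55.0% of them changed by less than 0.5 on the log2 scale. At 2-fold or more, 2127 genes (10.2%) were higher and 342 (1.64%) lower. The balance of directions differed with the level of the gene. Among genes over 100 CPM, 363 of 2322 were higher and 1538 were lower, with a median log2 fold change of -0.2. Genes between 1 and 10 CPM showed the opposite balance, with 2268 of 5261 higher, 691 lower and a median of 0.25. Of genes between 10 and 100 CPM, 31.8% were higher and 40.1% lower, and of those over 100 CPM, 15.6% and 66.2%; the gene groups below are set beside these shares. These values are relative to the other transcripts of a library, and in bulk RNA fewer cells of a type and less RNA per cell cannot be told apart.

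**Figure D1:**
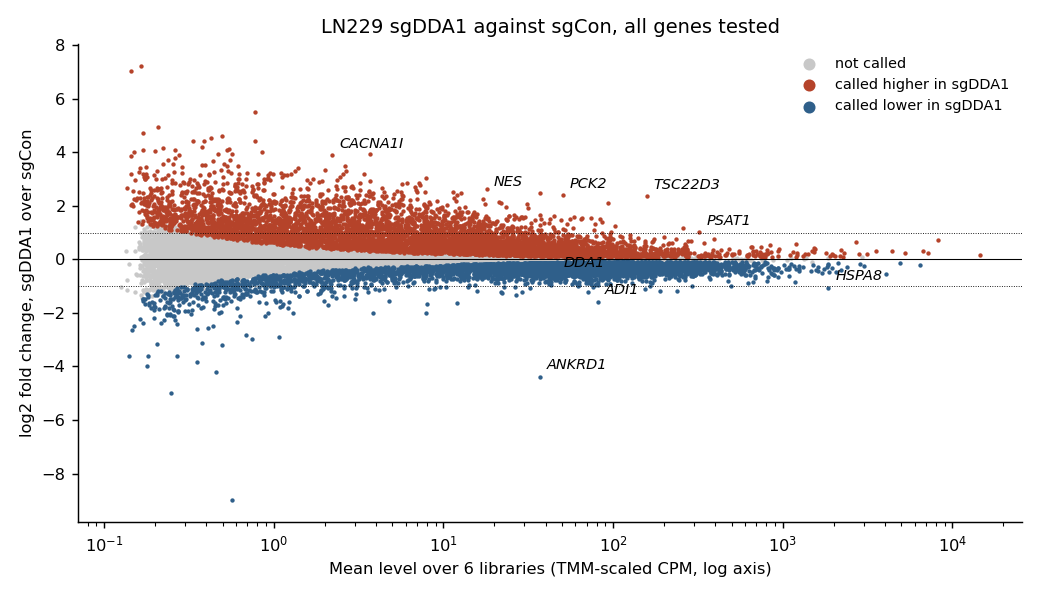
Log2 fold change, sgDDA1 over sgCon, against the mean level over the 6 libraries in TMM-scaled CPM (log axis), one point per gene tested; colours mark genes called higher or lower, and dotted lines mark a 2-fold change. Genes over 100 CPM lie mostly below 0, with 1538 called lower and 363 called higher.

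DDA1 itself (GRCh38, chr19:17309518-17323301, plus strand) was at 37.9, 35.5 and 38.9 CPM in sgDDA1 libraries and at 53.7, 56.3 and 56.0 CPM in sgCon libraries, in CPM scaled by TMM, as are all LN229 levels from here on. The groups did not overlap, and the sgDDA1 mean was 67.6% of the sgCon mean (log2 fold change -0.56 ± 0.05 SE, adjusted p = 1.7e-10). Other members of the ligase fell by small amounts. Of 31 ligase, receptor, signalosome and neddylation genes, 22 were lower and 4 higher, with a median log2 fold change of -0.27. By level, 13 of the 17 between 10 and 100 CPM were lower, beside 40.1% of all genes there, and 9 of the 12 over 100 CPM, beside 66.2%. The ring subunit RBX1 averaged 46.8 ± 1.54 CPM in sgDDA1 and 65.5 ± 2.38 CPM in sgCon (SD, n = 3 each), a log2 change of -0.49. The signalosome subunit COPS3 changed by -0.55 and the receptor DCAF15, through which some sulfonamides act, by -0.56. The scaffold CUL4A was lower (-0.34), whereas its paralog CUL4B was higher, at 289 ± 5.45 CPM in sgDDA1 and 246 ± 5.94 CPM in sgCon (0.24 ± 0.04 SE), a call lost in the fit over 18 libraries (adjusted p = 0.12). DDB2, the receptor that recognises ultraviolet damage, was also higher (0.34), and DET1, a DDA1 partner, was at 0.39 at a low level, a call (adjusted p = 0.022) that was lost with DESeq2 (adjusted p = 0.084), in the fit over 18 libraries (0.24), without sgDDA1 replicate 2 (0.077) and without sgCon replicate 1 (0.11). The small rise of DTL, a receptor of replicating cells, likewise lost its call under 9 alternatives. In the fit over 18 libraries the falls of DDB1, COP1, CRBN, AMBRA1, PHIP, GPS1, COPS2 and CAND1 also lost their calls.

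The greatest fall among genes at 10 CPM or more was that of ANKRD1, a nuclear ankyrin repeat protein and textbook target of the YAP and TEAD transcription factors. Its level was 2.67, 3.79 and 3.63 CPM in sgDDA1 libraries and 68.0, 70.5 and 73.0 CPM in sgCon libraries. No sgDDA1 library came near an sgCon library, and the sgDDA1 mean was 4.77% of the sgCon mean (log2 fold change -4.38 ± 0.08 SE, adjusted p = 1.3e-24). Leading genes, and up to 3 members named per list, were drawn only from called genes whose groups did not overlap. Lack of overlap in them, here and below, was therefore required and is not a further result. The other targets did not move as one. Among 30 YAP and TEAD genes, 12 were higher and 8 lower, with a median of 0.02. Of the 18 between 10 and 100 CPM, 6 were higher and 6 lower, near the 31.8% and 40.1% of all genes there. CCN2 and CCN1, matricellular proteins that are the usual companions of ANKRD1, changed by -0.64 and -0.59, while AJUBA, a LIM protein, rose by 0.75. The ANKRD1 promoter is shown because this gene led the falls at that level; capitals mark CATTCC or its reverse complement GGAATG, the core of the TEAD element, which was found in the window from 250 bases before to 50 bases after the start in 5 of 15 called list members with a promoter entry (33.3%) and in 14.0% of 27305 promoters. The sequence is from RefSeq, GRCh38.p14, chr10:90921038-90921337, minus strand.
ANKRD1: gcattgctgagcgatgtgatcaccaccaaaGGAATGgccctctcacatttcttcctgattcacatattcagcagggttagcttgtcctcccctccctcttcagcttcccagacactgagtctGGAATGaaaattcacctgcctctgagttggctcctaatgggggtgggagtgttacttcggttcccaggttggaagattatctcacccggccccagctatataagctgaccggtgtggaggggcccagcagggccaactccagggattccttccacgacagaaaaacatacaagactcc
A match is a description of the letters and not evidence of binding.

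Genes of the amino acid response rose together. ATF4 is a transcription factor made when cells sense amino acid shortage or other stress, and it drives genes for amino acid synthesis, transport and tRNA charging. Of 48 such genes, 43 were higher and 1 was lower in sgDDA1 cells, with a median log2 fold change of 0.56 against 0.021 over all genes. Of the 26 over 100 CPM, 22 were higher, beside 15.6% of all genes at that level. PCK2, a mitochondrial enzyme that makes phosphoenolpyruvate, was at 79.8, 88.9 and 85.8 CPM in sgDDA1 and 15.2, 17.3 and 15.9 CPM in sgCon, a 5.27-fold higher mean (adjusted p = 2.7e-22). The groups lay far apart in every library. DDIT4, an inhibitor of mTORC1, was at 155, 151 and 149.8 CPM in sgDDA1 and 34.7, 37.6 and 34.6 CPM in sgCon (2.09 ± 0.04 SE). CHAC1, which degrades glutathione, showed the steepest rise of the named members, with 12.7, 14.5 and 14.7 CPM in sgDDA1 against 1.48, 2.07 and 1.71 CPM in sgCon (3.02 ± 0.12 SE).

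Further members acted in amino acid and folate metabolism. PSAT1, which makes phosphoserine, was at 409, 451 and 434 CPM in sgDDA1 and 214, 220 and 210.4 CPM in sgCon (1.01 ± 0.04 SE), without overlap. ALDH1L2, a mitochondrial folate enzyme, averaged 144 ± 12.7 CPM in sgDDA1 and 60.1 ± 3.70 CPM in sgCon (SD, n = 3 each). PHGDH, the first enzyme of serine synthesis, rose by 0.75 on the log2 scale. ASNS, asparagine synthetase, rose by 1.75 and the cystine importer SLC7A11 by 1.49. The mRNA of ATF4 itself rose by 0.56. DDIT3, which encodes the stress factor CHOP, had a log2 change of -0.07 and was not called, and ALDH18A1, a proline synthesis enzyme, was the member that fell (-0.33). No promoter of 33 called members held TGATGNAAT or its reverse complement, the letters searched for the CEBP-ATF element. These letters stand in 1.02% of all promoters. They fix the last base as T, and forms with another last base were not counted. On the reverse strand, the CHAC1 promoter holds a run that differs from the letters at that base only. The lack of matches therefore depends on the letters chosen and says nothing of ATF4.

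**Figure D2:**
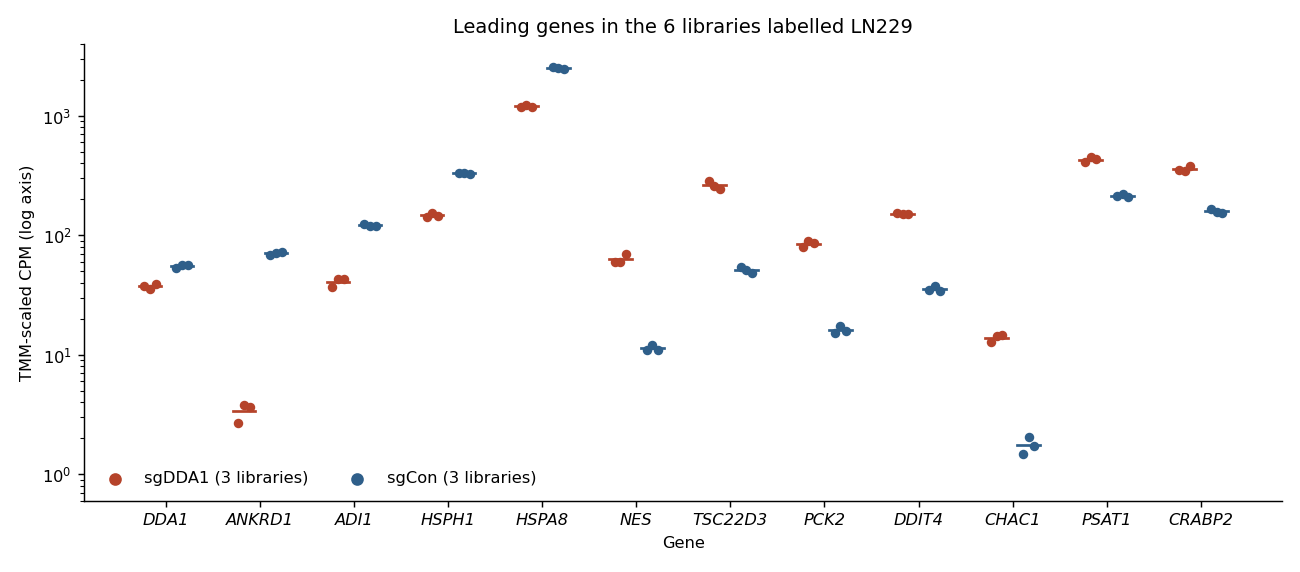
TMM-scaled CPM (log axis) of 12 genes in the 3 sgDDA1 libraries (left of each pair) and the 3 sgCon libraries (right); each point is a library and each bar the group mean. ANKRD1 sits at 2.67 to 3.79 CPM in sgDDA1 against 68.0 to 73.0 CPM in sgCon. No pair of groups shown overlaps, which was a condition for choosing all of these genes except DDA1.

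Other leading rises came from several functions. TSC22D3, a leucine zipper protein induced by glucocorticoids, was at 286, 261 and 245 CPM in sgDDA1 and 54.5, 51.7 and 48.2 CPM in sgCon (2.35 ± 0.05 SE), the only gene over 100 CPM with a change above 2 on the log2 scale among the named rises. NES, the intermediate filament nestin of neural progenitors, was at 60.1, 60.4 and 69.5 CPM in sgDDA1 and 10.9, 12.1 and 11.1 CPM in sgCon (2.48 ± 0.06 SE). CSPG4, the NG2 proteoglycan of oligodendrocyte precursors and pericytes, was at 18.5, 19.2 and 20.7 CPM in sgDDA1 against 3.58, 3.51 and 2.96 CPM in sgCon. All sgDDA1 libraries exceeded all sgCon libraries for these genes, as the rule that chose them required. CRABP2, a retinoic acid carrier, averaged 359.7 ± 18.4 CPM in sgDDA1 and 159 ± 6.63 CPM in sgCon (SD, n = 3 each). MMP2, a gelatinase, rose by 2.29 on the log2 scale, MGAT3, which adds bisecting N-acetylglucosamine, by 2.25, UBE2L6, the conjugating enzyme of ISG15, by 2.18, and USH1C, a scaffold known from hair cells, by 2.39. STUM and TMEM255A rose by 2.61 and 2.48. Under the rule for switched genes, 2 genes were under 0.5 CPM in every sgCon library and at 3 CPM or more in every sgDDA1 library, and none went the other way. They were CACNA1I, a T-type calcium channel subunit, at 3.61 to 4.68 CPM in sgDDA1 and 0.19 to 0.323 CPM in sgCon, and USH1G, at 3.47 to 3.81 CPM in sgDDA1 and 0.28 to 0.444 CPM in sgCon.

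Chaperones fell. Heat shock proteins fold client proteins, and the heat shock factor HSF1 sets many of their transcript levels. Of 41 cytosolic chaperone and heat shock genes tested, 33 were lower and 3 higher, with a median log2 fold change of -0.39. Of the 27 over 100 CPM, 26 were lower, beside 66.2% of all genes at that level. HSPA8, the constitutive HSP70, was at 1197, 1237 and 1180 CPM in sgDDA1 and 2576, 2497 and 2461 CPM in sgCon. No library of one group reached the other, and the log2 change was -1.06 ± 0.04 (SE, adjusted p = 1.5e-18). HSPH1, its nucleotide exchange factor, averaged 148 ± 6.35 CPM in sgDDA1 and 331 ± 5.95 CPM in sgCon (SD, n = 3 each). DNAJA1, a J-domain partner of HSP70, changed by -0.99, DNAJB1 by -0.82 and the inducible HSP90AA1 by -0.54. The inducible HSP70 genes HSPA1A (-1.62) and HSPA1B (-1.19) share nearly all their sequence, so the division of reads between them is uncertain. Small heat shock protein HSPB1 was among those that rose (0.73).

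A heat shock element, searched as GAANNTTC followed directly by NNGAA or as the reverse complement, stood in 4 of 28 promoters of chaperones called lower (14.3%) and in 0.487% of all promoters. HSPA8 and DNAJA1 are shown as abundant members that fell and hold it, with the element in capitals. Both are from RefSeq, GRCh38.p14, chr11:123062087-123062386 on the minus strand for HSPA8 and chr9:33025023-33025322 on the plus strand for DNAJA1.
HSPA8: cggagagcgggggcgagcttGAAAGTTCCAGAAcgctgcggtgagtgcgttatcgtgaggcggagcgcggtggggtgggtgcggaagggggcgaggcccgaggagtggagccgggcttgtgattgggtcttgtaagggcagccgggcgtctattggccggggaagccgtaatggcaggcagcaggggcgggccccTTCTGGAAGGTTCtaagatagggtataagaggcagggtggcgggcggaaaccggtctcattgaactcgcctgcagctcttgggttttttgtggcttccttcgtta
DNAJA1: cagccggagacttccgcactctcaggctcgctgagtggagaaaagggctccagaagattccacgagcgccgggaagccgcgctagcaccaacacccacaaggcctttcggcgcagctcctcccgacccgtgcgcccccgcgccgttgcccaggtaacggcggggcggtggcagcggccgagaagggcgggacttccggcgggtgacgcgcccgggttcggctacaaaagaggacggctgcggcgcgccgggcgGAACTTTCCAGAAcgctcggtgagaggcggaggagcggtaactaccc
The promoters of HSPH1 and HSPA1A held no match to these letters in the same window, which says nothing of HSF1.

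After ANKRD1 and HSPA1A, the next greatest fall at a mean of 10 CPM or more was that of ADI1, an enzyme of methionine salvage, at 36.7, 43.2 and 42.9 CPM in sgDDA1 and 125, 120.3 and 120.7 CPM in sgCon (-1.58 ± 0.05 SE, adjusted p = 3.6e-19). The groups stood apart in all 6 libraries. DOHH, which completes the hypusine modification of the translation factor eIF5A, averaged 13.0 ± 0.875 CPM in sgDDA1 and 31.3 ± 1.58 CPM in sgCon (SD, n = 3 each). BRPF3, a scaffold of histone acetyltransferase complexes, averaged 43.0 ± 2.39 CPM in sgDDA1 and 98.9 ± 1.55 CPM in sgCon, and PIGW, an enzyme of GPI anchor synthesis, changed by -1.21 on the log2 scale. LANCL2 changed by -1.34 and PRKAR1B, a regulatory subunit of protein kinase A, by -1.22. Abundant genes that fell included UTP20, a factor of ribosome assembly (-1.10), HCFC1, a chromatin cofactor (-1.01), and ALYREF, an mRNA export adaptor (-0.99).

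Protein quality control in other compartments was lower too. Of 32 endoplasmic reticulum stress genes, 22 were lower and 5 higher (median -0.32), with 13 of the 16 over 100 CPM lower. HSPA5, the main HSP70 of that compartment, averaged 584 ± 12.9 CPM in sgDDA1 and 1029 ± 27.4 CPM in sgCon (SD, n = 3 each), a log2 change of -0.82. Its cochaperones and oxidative folding enzymes moved likewise, with CALR at -0.60, HYOU1 at -0.56 and PDIA3 at -0.46. XBP1, a factor of the unfolded protein response, rose by 0.21. Among 35 proteasome genes 32 were lower and 1 higher (median -0.41), with all 26 over 100 CPM lower, beside 66.2% of all genes at that level. PSMD11, a lid subunit, averaged 121 ± 4.62 CPM in sgDDA1 and 193 ± 3.42 CPM in sgCon (SD, n = 3 each), and PSMD1 changed by -0.62. Ribosomal protein genes went the other way by little, with 33 of 42 higher, 1 lower and a median of 0.16, all 42 lying over 100 CPM, where 15.6% of all genes were higher; the member that fell was RPS15 (-0.46).

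Proliferation genes were lower by modest amounts. Of 40 G2/M and mitosis genes, 30 were lower and 2 higher (median -0.39), and of 45 replication and S phase genes 32 were lower and 2 higher (median -0.22). Over 100 CPM, where 66.2% of all genes were lower, 24 of 29 and 20 of 23 were lower. CDC20, the activator of the anaphase promoting complex, averaged 109 ± 4.33 CPM in sgDDA1 and 188 ± 6.01 CPM in sgCon (SD, n = 3 each). CCNA2, cyclin A2, changed by -0.67, AURKA, a mitotic kinase, by -0.59, and CCNE2, cyclin E2, by -0.64. CDK1 (0.08, not called) and TOP2A, a topoisomerase (0.09, called), did not follow. Of 23 replication-dependent histone genes tested, 14 were lower and 1 higher, at low levels and with reads that near-identical copies may share, so single histone genes are uncertain. MYC averaged 339 ± 9.31 CPM in sgDDA1 and 212 ± 8.67 CPM in sgCon (SD, n = 3 each). The cyclin-dependent kinase inhibitors CDKN1A (0.60) and CDKN1C (1.54) were higher. CDKN2B, another such inhibitor, lay lower without overlap, at 15.0 to 16.8 CPM in sgDDA1 and 17.8 to 19.7 CPM in sgCon before TMM scaling. Of 18 cell cycle inhibitor and cyclin D genes tested, 7 were higher and 7 lower (median 0.048). Of the 10 between 10 and 100 CPM, 2 were higher and 5 lower, beside 31.8% and 40.1% of all genes there.

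DNA repair genes moved in both directions, and none of 105 tested members of 3 repair lists rose 2-fold. Homologous recombination and Fanconi anaemia genes had 7 higher and 12 lower of 32, with a median of -0.01. Of those between 10 and 100 CPM, 8 of 21 were lower, near the 40.1% of all genes there, and of those over 100 CPM 4 of 8, beside 66.2%. NBN, part of the MRN break sensor, averaged 70.2 ± 3.74 CPM in sgDDA1 and 116 ± 2.99 CPM in sgCon (SD, n = 3 each). End joining and checkpoint genes had 5 higher and 20 lower of 36, with 8 of 21 lower between 10 and 100 CPM and 9 of 12 over 100 CPM, and the damage-marking histone H2AX fell the most (-1.02 ± 0.06 SE). Excision and mismatch repair genes had 9 higher and 16 lower of 37, with 10 of 26 and 6 of 7 lower at those levels, and UNG, the uracil glycosylase, fell by 0.78 on the log2 scale. Of 42 mTOR complex and regulator genes, 9 were higher and 27 lower (median -0.15), with 20 of 31 lower between 10 and 100 CPM; DEPTOR, an mTOR inhibitor, rose by 1.40, and AKT1S1, which encodes PRAS40, changed by -0.83.

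Matrix, receptor and channel genes rose. Collagen and matrix genes had 28 of 35 higher and 1 lower (median 0.76). Integrins and laminins had 18 of 27 higher and 2 lower (0.59), and receptor tyrosine kinases and growth factors 31 of 40 higher and 1 lower (0.64). Between 10 and 100 CPM, 16 of 18, 11 of 14 and 18 of 20 were higher, beside 31.8% of all genes there. Below 10 CPM, 10 of 13, 5 of 10 and 13 of 19 were higher. Of all genes, 43.1% were higher between 1 and 10 CPM and 20.6% below 1 CPM, so low integrins and laminins lay near that share. Versican, VCAN, was at 144, 137.5 and 143 CPM in sgDDA1 and 80.2, 82.8 and 70.1 CPM in sgCon. EGFR averaged 44.5 ± 2.37 CPM in sgDDA1 and 23.8 ± 1.09 CPM in sgCon (SD, n = 3 each), and DDR2, a collagen receptor, rose by 1.54. Ion channels had 30 of 39 higher and none lower (median 0.89), 12 of the tested ones having a mean over 10 CPM. Of those 12, 8 were higher, and of the 27 below 10 CPM 22 were higher, beside the same shares. KCNA2, a voltage-gated potassium channel, was at 12.5, 12.1 and 10.7 CPM in sgDDA1 and 1.6, 2.15 and 1.69 CPM in sgCon (2.72 ± 0.12 SE). For markers of fibroblasts and pericytes, the summed level of 7 markers was 79.1 to 85.5 CPM in sgDDA1 and 52.7 to 55.0 CPM in sgCon, with 3 of the 7 under 1 CPM. Most of that rise came from COL1A1, itself a collagen gene, at 28.4 to 33.9 CPM in sgDDA1 and 13.3 to 15.2 CPM in sgCon, while RGS5 overlapped. The summed level of 4 neuron markers was 37.8 to 42.0 CPM in sgDDA1 and 29.3 to 31.3 CPM in sgCon. RBFOX3 and SYT1 carried that rise, and GAD1 and SNAP25 overlapped between the groups. The part of other cells in these results was not tested.

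**Figure D3:**
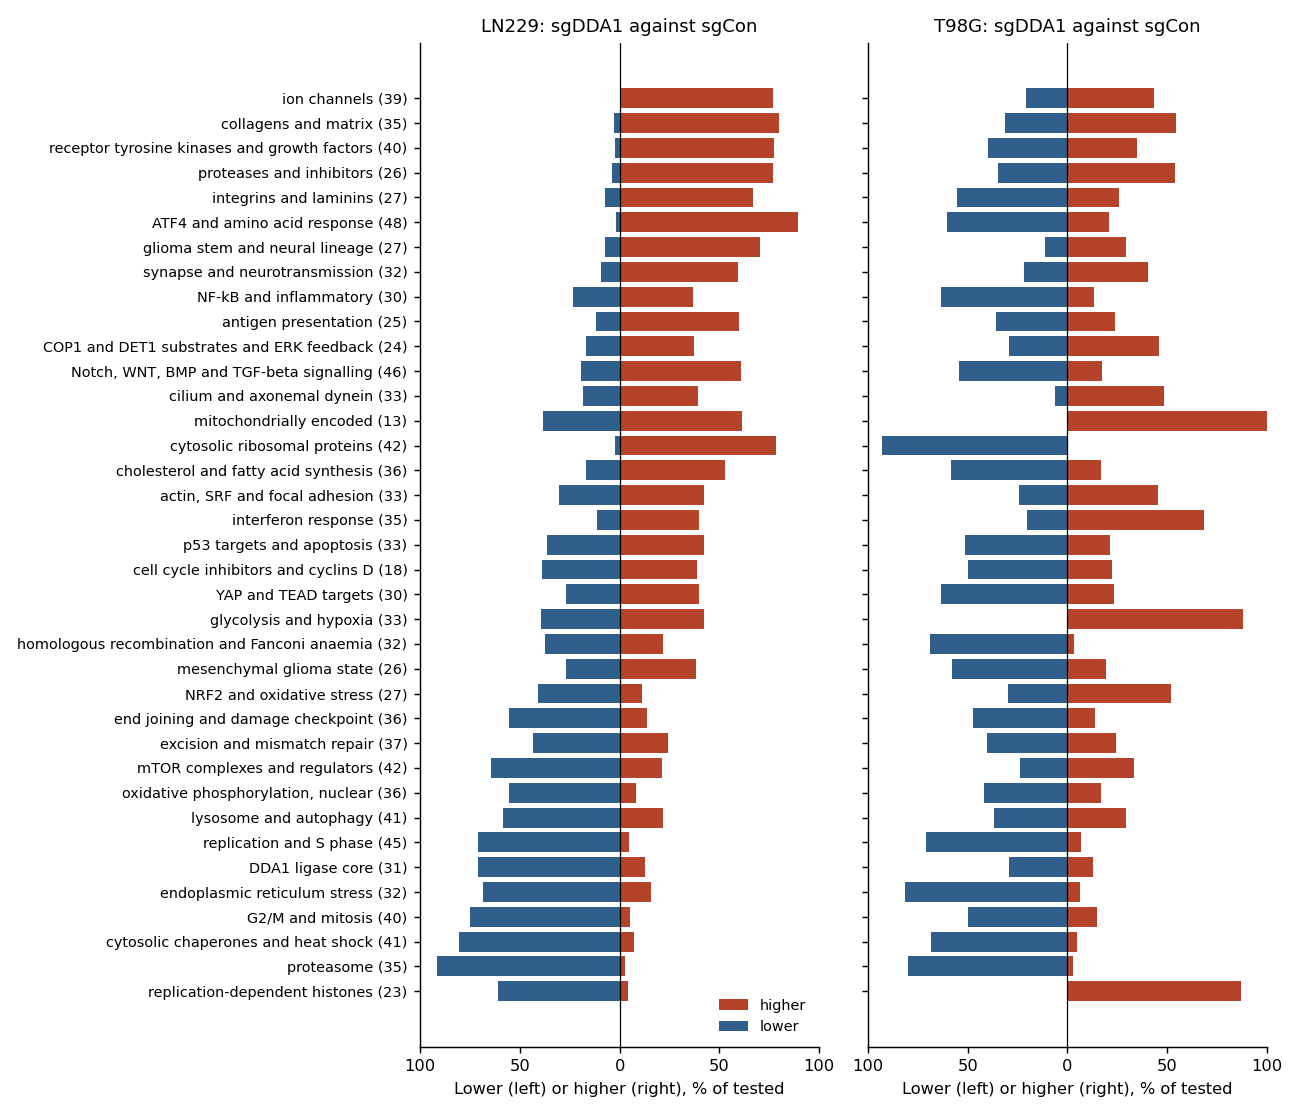
Share of the tested members of each gene list called higher (right) or lower (left) in sgDDA1 cells, for LN229 (left panel) and T98G (right panel); the number tested in LN229 stands after each name and lists are ordered by their LN229 median. In LN229 the ATF4 list has 43 of 48 members higher, while in T98G 10 are higher and 29 lower.

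The LN229 response was set against that of T98G, a second glioblastoma line with its own controls, in a fit over the 12 libraries of both lines. The responses differed for 9044 of 23082 genes (39.2%), and T98G itself had 21.6% of genes higher and 21.8% lower. Of 21 genes at 10 CPM or more that fell 2-fold in LN229, 17 (81.0%) were also lower in T98G, against 35.5% of all genes at that level. Of 245 that rose 2-fold in LN229, 128 (52.2%) were higher in T98G and 50 (20.4%) were lower, against 28.8% and 35.5% of all genes at that level. Cytosolic chaperones were lower in T98G as well, with 28 of 41 called lower, and proteasome genes likewise (28 of 35).

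The ATF4 list did not follow. In T98G it had 10 members higher and 29 lower, with a median of -0.2, and 43 of its 48 members differed between the lines. PSAT1 changed by -0.62 in T98G, so that the responses differed by 1.67 on the log2 scale, and TSC22D3 changed by -0.27, a difference of 2.66. Ribosomal protein genes had none higher and 39 of 42 lower in T98G. Histone genes were higher in T98G, 20 of 23. ANKRD1 was lower in both lines, but by 0.61 on the log2 scale in T98G, a difference of -3.74 ± 0.17 (SE).

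**Figure D4:**
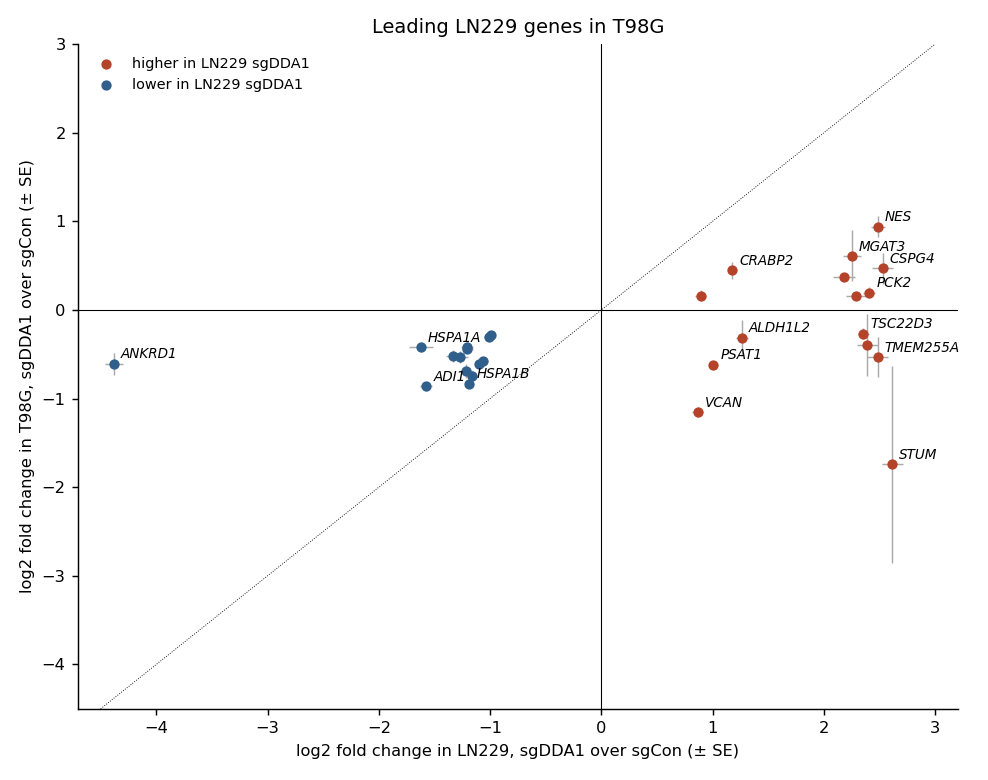
Log2 fold change in T98G against that in LN229, sgDDA1 over sgCon, with SE bars, for the 29 genes with the largest rises or falls in LN229 at a mean of at least 10 CPM or at least 100 CPM; the dotted line marks equal responses. All 14 falls lie below 0 in both lines, while the 15 rises lie on both sides of 0 in T98G. The genes were chosen by their LN229 change.

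The authors' deposited table of differential genes, whose columns name the LN229 groups, holds 36 genes as higher and 6 as lower. The rule behind its rows is not stated in those sources. Of the 42, 41 passed the filter here, all with the sign of the authors' deposited table and with log2 fold changes within 0.081 of it. All 42 also changed 2-fold with the same sign in T98G, whereas 2469 genes passed the 2-fold threshold in LN229 here. Among its members, the cholinesterase BCHE was at 7.53, 8.92 and 8.93 CPM in sgDDA1 and 2.23, 2.07 and 1.99 CPM in sgCon, without overlap. EMILIN2, a matrix glycoprotein, fell to 41.7 ± 1.67 CPM in sgDDA1 cells, against 83.4 ± 4.09 CPM in sgCon cells (SD, n = 3 each).

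Libraries labelled U118-MG sgCon resembled LN229. Their log2 CPM values correlated with those of LN229 sgCon libraries at 0.951 to 0.98 across genes, while U118-MG sgDDA1 libraries did so at 0.835 to 0.842. Across genes such values describe likeness and genes are not independent replicates. The likeness had limits. CD44 was at 52.8 to 74.2 CPM in U118-MG-labelled sgCon, against at most 5.13 CPM in LN229 libraries. A set of 63 genes was at 20 CPM or more in U118-MG sgDDA1 and under 0.1 CPM in LN229 sgCon. Their median share of that level was 2.86% to 4.09% in U118-MG-labelled sgCon and 0.0235% to 0.0367% in LN229 sgDDA1. The cause was not tested. With that limit, several leading genes have another set of levels, given here in CPM of one scaling over 18 libraries and without a test. ANKRD1 was at 2.41, 3.43 and 3.25 CPM in LN229 sgDDA1, 4.34, 7.67 and 4.67 CPM in U118-MG-labelled sgCon, and 60.3, 61.6 and 63.7 CPM in LN229 sgCon. NES was at 54.2, 54.7 and 62.2 CPM in LN229 sgDDA1, 78.8, 60.9 and 70.7 CPM in U118-MG-labelled sgCon, and 9.65, 10.6 and 9.65 CPM in LN229 sgCon. For both genes the control libraries with the other label lay near LN229 sgDDA1. So did STUM, at 27.8, 21.9 and 31.0 CPM there, beside means of 28.1 CPM in LN229 sgDDA1 and 4.49 CPM in LN229 sgCon. TMEM255A, USH1C, MGAT3, UBE2L6 and PLCXD1 lay likewise, and CSPG4, MMP2 and CRABP2 lay above LN229 sgDDA1. ALDH1L2 lay near LN229 sgCon, and PSAT1, VCAN, PCK2 and TSC22D3 varied or lay between. HSPA8 differed, at 1080, 1121 and 1056 CPM in LN229 sgDDA1, 2030, 1888 and 1594 CPM in U118-MG-labelled sgCon, and 2284, 2182 and 2147 CPM in LN229 sgCon. Of the other falls, HSPH1 and UTP20 lay near or below LN229 sgDDA1, and the rest varied or lay between or near LN229 sgCon.

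**Figure D5:**
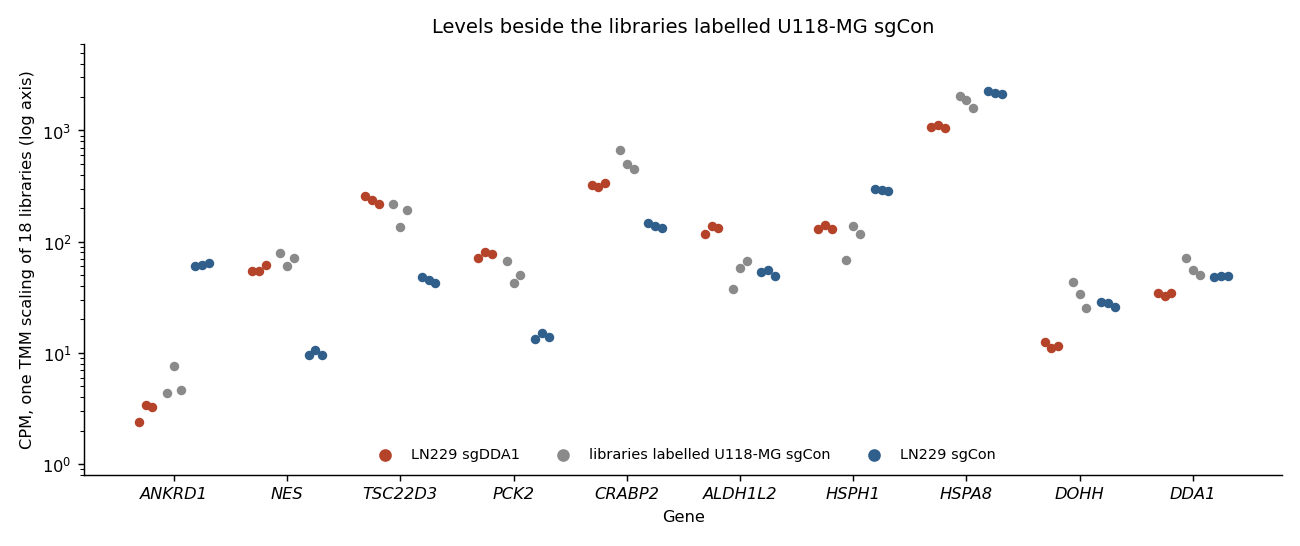
CPM on one TMM scaling of 18 libraries (log axis) for 10 genes in LN229 sgDDA1 (left), libraries labelled U118-MG sgCon (middle) and LN229 sgCon (right), 3 libraries each. ANKRD1 is at 4.34 to 7.67 CPM in the middle group and at 60.3 to 63.7 CPM in LN229 sgCon.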

How the data were processed

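RNA was sequenced from 18 libraries, of which 6 enter the main comparison. Per the submitters' processing notes, reads were handled with fastp 0.19.6, STAR 2.4.0, HTSeq 0.12.4 and DESeq2 on GRCh38; strand is not stated there, so antisense pairs may share reads. The deposited table holds raw counts for 46218 gene IDs, with 0 per-sample columns unmapped and no row without a gene. FPKM values were deposited by the authors and not used. The authors' deposited differential table gives, per its header, the signal as normalized read count averaged by group. Its log2 fold changes were made by the authors. Its p-values, raw and adjusted, were also computed by the authors.

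From the counts, genes were filtered with filterByExpr, scaled by TMM and tested with edgeR 4.0.16 (quasi-likelihood, Benjamini-Hochberg, adjusted p under 0.05) in R 4.3.3, on the 6 libraries alone; the line difference is an interaction over 12 libraries. DESeq2 1.42.0 served as an alternative. A floor of 3 counts is 0.0319 to 0.0623 CPM in LN229 and covers counting error only. Between replicates the chi-square per gene was 4.13 to 5.79, so the libraries differ beyond the error of independent counts. Of counts from 1 to 19 in LN229 libraries, 57.4% to 62.5% were even, and the cause was not tested. Whether each count is 1 independent read is not settled, which limits the floor and the chi-square. On simulated data of 19964 genes, 54% of 50 genes changed 1.25-fold were recovered, 76% at 1.5-fold and 92% at 2-fold, and 20 of 19764 unchanged genes were called. The changed genes were drawn only from those with an expected count of at least 50. Far fewer genes changed there than were called in LN229, so these rates do not cover low genes or so broad a change. Of the IDs, 44443 were found in GENCODE 29.

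Members and lists were chosen with earlier results of these data known. Named are DDA1 and its ligase list, and the 10 largest rises and falls at a mean of 10 CPM and the 6 largest at 100 CPM. Up to 3 called members per list are also named. Both the leading genes and these members were required to have no overlap between groups. Named too are genes switched between under 0.5 and at least 3 CPM, and 5 each way of the authors' table. Further list members were named after their values were seen.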

Additional observations from a re-analysis of the deposited data

Results flagged for a closer look

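The responses of the 2 lines to the DDA1 guide differed, by the test of the difference over 12 libraries (edgeR, adjusted p under 0.05), for DDA1 and for each of 29 genes, the 10 largest rises and falls in LN229 at a mean of at least 10 CPM and the 6 largest each way at 100 CPM or more, some of them counted under both. These genes were picked for the size of their LN229 change, a choice that favours a larger change there. The values are log2 fold changes in LN229 minus those in T98G.

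DDA1 differed by -0.33. Among genes lower in LN229 the differences were -3.74 for ANKRD1, -1.16 for HSPA1A, -0.68 for ADI1, -0.78 for LANCL2, -0.70 for DOHH, -0.49 for PRKAR1B and -0.75 for PIGW. They were -0.72 for BRPF3, -0.31 for HSPA1B, -0.38 for HSPH1, -0.45 for UTP20, -0.44 for HSPA8, -0.66 for HCFC1 and -0.67 for ALYREF. Among genes higher in LN229 they were 4.39 for STUM, 2.10 for CSPG4, 1.58 for NES, 3.05 for TMEM255A, 2.25 for PCK2, 2.83 for USH1C, 2.66 for TSC22D3 and 2.18 for MMP2. STUM was near the floor in T98G, with means of 0.0147 CPM in sgDDA1 and 0.0547 CPM in sgCon. Its difference has an SE of 1.12, and its size is uncertain. TMEM255A, USH1C and MGAT3 also averaged under 1 CPM in both T98G groups. The rest were 1.69 for MGAT3, 1.86 for UBE2L6, 1.61 for ALDH1L2, 0.77 for CRABP2, 1.67 for PSAT1, 0.77 for PLCXD1 and 2.06 for VCAN. All 14 falls were also called lower in T98G, while of the 15 rises 7 were called higher and 3 lower there.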

How the results depend on the processing

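All 174 called genes among the 179 named kept their direction under the alternatives tried. Under these, 23 gene values were no longer past the threshold and 5 were newly past it. The 23 included values of DET1 and DTL and, in the fit over 18 libraries, of lower genes such as DDB1, CAND1 and PHIP. COPS7A, not called at -0.039, had 0.0011 in the fit over 12 libraries. Called genes numbered 10828 to 11453 when 1 library was left out, with 5709 to 6063 higher, 5119 to 5636 lower, 2080 to 2293 higher at 2-fold and 298 to 421 lower at 2-fold, and 8421 to 8732 genes differed between lines. A filter at a mean of 1 CPM left 1239 higher and 73 lower at 2-fold, since it tests fewer low genes. A fit over all 18 libraries called 7185 genes, 2491 of them lower, and 65.3% of its calls were higher against 52.3% in the 6 libraries; the cause was not tested. Halved counts gave 217 lower at 2-fold. The median of the oligodendrocyte marker list turned to 0.0639 under the 1 CPM filter. Of the other list medians, 107 values moved by more than the replicate spread, 21 of them in the fit over 12 libraries, and 580 did not; medians of 6 lists changed sign under some setting. DESeq2 called 11002 genes. Other scalings moved the median of all genes by 0.032 at most. Whether replicate numbers pair the samples was not settled. Correlations of deviations were 0.14, 0.046 and 0.032 for equal numbers and -0.1 to 0.056 for unequal numbers. With the replicate block 12182 genes were called, and 9083 differed between lines. Depth limits genes under 1 CPM, such as POSTN and HGF, whose sgCon levels lie near the floor.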

Other observations

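Serine- and arginine-rich splicing factors, a family that guides exon choice, were lower in LN229 sgDDA1 cells. The family was chosen after its values were seen. Of its 12 members, 9 were called lower and none higher, with a median log2 fold change of -0.4. Of the 10 over 100 CPM, 8 were lower, beside 66.2% of all genes at that level with a median of -0.2, so the share of members lower lies not far from that of genes of like level. SRSF6 averaged 119.6 ± 5.30 CPM in sgDDA1 and 213 ± 10.6 CPM in sgCon (SD, n = 3 each), and SRSF3 averaged 367 ± 15.3 CPM in sgDDA1 and 542 ± 7.68 CPM in sgCon. SRSF11 averaged 559.7 ± 16.1 CPM in sgDDA1 and 564 ± 6.71 CPM in sgCon and was not called. In T98G 6 of the 12 were called higher and none lower.

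The sterol exporters ABCG1 and ABCA1, picked after their values were seen, rose at low levels. ABCG1 was at 5.18, 4.59 and 5.12 CPM in sgDDA1 and 0.972, 0.689 and 0.55 CPM in sgCon, and ABCA1 was at 9.94, 8.6 and 7.65 CPM in sgDDA1 and 3.49, 4.2 and 3.24 CPM in sgCon. The groups did not overlap for either gene. Genes near the floor, picked in the same way, also differed. GZMB, a granzyme of cytotoxic lymphocytes, was at 0 CPM in all sgDDA1 libraries and at 0.894, 1.29 and 1.23 CPM in sgCon libraries. CTCFL, a germline paralog of CTCF, was at 1.29, 1.6 and 1.69 CPM in sgDDA1 libraries and at 0.0662, 0 and 0 CPM in sgCon libraries. Of 33 glycolysis and hypoxia genes, 14 were higher and 13 lower in LN229. Between 10 and 100 CPM 11 of 16 were higher, beside 31.8% of all genes there. Over 100 CPM 9 of 12 were lower, beside 66.2%. In T98G 29 of the 33 were higher and none lower, beside 21.6% and 21.8% of all genes.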
